A study of Mus musculus with 2 samples.

Results

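Microglia are the resident macrophages of the brain. They descend from yolk sac progenitors that seed the brain early in embryonic life, live on signalling through the CSF1 receptor, and are kept in their resident state by transforming growth factor beta signalling and factors such as SALL1. In the late embryonic forebrain they divide, clear dying cells and debris, and make the C1q complement proteins. Macrophages of the meninges, perivascular spaces and choroid plexus are close relatives that carry the mannose receptor gene Mrc1. The cells described here are parenchymal-type microglia, chosen by counts of unique molecular identifiers (UMIs, 1 per captured transcript): at least 10 UMIs of C1qa, C1qb, C1qc and Csf1r together, at most 2 UMIs of Mrc1, and at most 3 UMIs of the neuronal genes Neurod2 and Neurod6. There were 130 such cells among 21941 called cells. A barcode was called a cell when it had 1000 UMIs or more, 500 genes or more, and no more than 10% of its UMIs from mitochondrial genes.

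The study profiled mouse forebrain on embryonic day 18.5 by droplet single-cell RNA sequencing. There was 1 wild-type library and 1 library with the label Cyfip2 knockout, and 2 forebrains were pooled for each and dissociated with papain. CYFIP2 and its close relative CYFIP1 belong to the WAVE complex, the switch for branched actin assembly. The labels give no allele, strain or sex for the knockout, and no control allele or treatment that both groups share. With 1 library per genotype, a difference between genotypes and a difference between pools cannot be told apart, so no test between the groups was made, and every interval printed here is an exact 95% interval that covers counting error only.

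Over all other called cells Cyfip2 was at 84.8 CPM (counts scaled to a library sum of 1e+06 UMIs) in the wild-type library and 84.6 CPM in the knockout-labelled library. The level of the targeted gene therefore did not separate the libraries, and the second library is called knockout-labelled throughout. These counts come from the ends of transcripts, and the labels do not say which part of the gene was deleted, so the value does not check the label. No barcode was shared by members of both libraries, and 32 barcodes were shared among all called cells.

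The wild-type library held 47 members and the knockout-labelled library 83. They made up 0.517% (0.380 to 0.687%) of 9086 called cells and 0.646% (0.515 to 0.7998%) of 12855, a ratio of 1.25 (0.863 to 1.83) that includes no difference. The Mrc1-positive macrophages, chosen by the same limits with 3 or more Mrc1 UMIs, numbered 29 and 78, which is 0.319% and 0.607% of called cells, a ratio of 1.90 (1.23 to 3.02). Members were 61.8% of the 2 myeloid groups together in the wild-type library and 51.6% in the knockout-labelled library.

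Members held 543974 UMIs in the wild-type library and 825276 in the knockout-labelled library. The median depth was 8072 UMIs per cell (range 1565 to 42125) and 8263 (range 1322 to 40033), with a median of 2618 and 2487 genes. Members fell along a continuum of depth: 25 of 47 and 45 of 83 carried at least 100 UMIs of the 4 rule markers. Close to the marker limit there were 2 and 5 cells with 10 to 12 marker UMIs inside it, and 3 and 4 cells with 7 to 9 outside it. Close to the Mrc1 limit, 3 and 8 members carried exactly 2 Mrc1 UMIs and 3 and 5 cells with exactly 3 fell outside. Another 4 and 23 cells with enough marker UMIs were left out because they carried over 3 UMIs of Neurod2 and Neurod6.

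**Figure D1:**
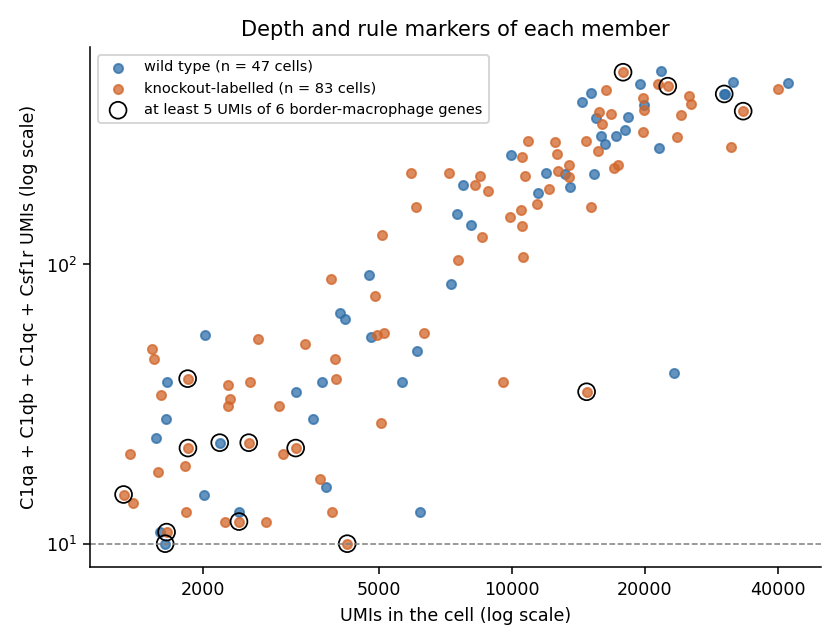
Each point is 1 member, with its total UMIs on the x axis and its summed C1qa, C1qb, C1qc and Csf1r UMIs on the y axis, both on log scales; the dashed line is the limit of 10 and rings mark cells with at least 5 UMIs of Pf4, F13a1, Lyve1, Cbr2, Dab2 and Folr2. Both libraries cover the same range of depth, and 3 wild-type and 12 knockout-labelled cells are ringed, with median depths of 2182 and 2889.5 UMIs.

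The genes that chose the cells were similar in the libraries, as a description only. C1qb was at 4995 CPM in the wild-type library and 5244 CPM in the knockout-labelled library, and Csf1r, the receptor for CSF1 and IL-34, was at 1463 and 1334 CPM. The 3 C1q chains, which assemble into the first complement component, lie side by side on mouse chromosome 4 (mm10).

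Microglia markers that the rule did not use were present in both libraries. Cx3cr1, the fractalkine receptor, was at 1978 CPM in the wild-type library and 1661 CPM in the knockout-labelled library, and P2ry12, the purinergic receptor that steers microglial processes, at 535 and 467 CPM. Tmem119 was at 224 and 228 CPM, and Sall1, the transcription factor that distinguishes microglia from other macrophages, at 136 and 120.0 CPM. All 24 listed microglia markers outside the rule had counts in both libraries. Some were also high in Mrc1 macrophages, with Fcrls at 1259 and 1260 CPM there, so their presence does not separate the 2 groups. Of single members, 10 of 47 and 20 of 83 had under 10 UMIs of 8 microglia genes (given below), and 0 and 2 had none.

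Markers of other cells were low but not absent. The 14-gene list of border macrophage markers summed to 669 CPM in wild-type members and 948 CPM in knockout-labelled members, against 19977 and 21862 CPM in the Mrc1 macrophages. Of the 8 lymphoid markers, 8 and 7 were at 0, and of the 7 granulocyte and mast cell markers, 7 and 6 were at 0. A few members carried a second programme. Cells with at least 5 UMIs of the 6 border genes Pf4, F13a1, Lyve1, Cbr2, Dab2 and Folr2, a limit chosen after the values were seen, numbered 3 of 47 and 12 of 83, and held 46 of 48 and 259 of 261 Pf4 UMIs. Their median depth was 2182 and 2889.5 UMIs, and they carried a median of 3 and 1.5 UMIs of 8 microglia genes (P2ry12, Tmem119, Cx3cr1, Fcrls, Siglech, Olfml3 and Gpr34 among them) against 88 and 60 in the other members. Scaled to depth, the 8 genes summed to 11687 and 5725 CPM in the border-gene cells and 8762 and 7923 CPM in the others. The border-gene cells were not uniform. Deep wild-type and knockout-labelled cells among them (30230 and 33371 UMIs) had 394 and 303 UMIs of the 8 genes and 0 of Pf4. Another knockout-labelled cell, with 14759 UMIs, had 2 UMIs of the 8 genes and 34 of Pf4. Which of these cells are border macrophages with few Mrc1 counts was not tested. In the wild-type library 1 member carried at least 20 UMIs of radial glia genes, and 1 member in each library carried at least 20 UMIs of GABAergic neuron genes.

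Against all called cells outside the 2 myeloid groups, the members' leading genes were Ccl5, Siglech, Mpeg1, Ctss, Cd300c2, Itgam, Ly86, P2ry12, Lair1 and Rgs1. Mpeg1, which encodes the pore-forming perforin-2, was at 467 and 437 CPM in members and at 0.514 and 0.588 CPM in other cells. Ctss, a lysosomal cysteine protease, was at 3373 and 2938 CPM in members and at 1.39 and 4.20 CPM elsewhere. Trem2, a lipid-sensing receptor of microglia, was at 1169 and 915 CPM in members and 0.303 and 1.80 CPM elsewhere. Since C1q and Csf1r chose the cells, these ratios describe the members and are not a test.

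The comparison with Mrc1 macrophages asks which genes separate these 2 related groups, with the difference in Mrc1 itself fixed by the rule. Among 726 genes with at least 200 CPM in either group of each library, 45 (6.2%) were at least 2-fold higher in members in both libraries and 61 (8.4%) at least 2-fold lower. Sparc, a secreted matrix glycoprotein, was at 1066 and 1031 CPM in members and 77.2 and 78.1 CPM in macrophages. Tmem119 was at 17.1 and 26.2 CPM in macrophages, well under its level in members. F11r, a junctional adhesion molecule, was at 263 and 205 CPM in members and at 18.6 and 15.6 CPM in macrophages, and Itgam, the alpha chain of complement receptor 3, at 461 and 367 CPM against 58.6 and 46.2. The log2 ratios of Sparc (3.79 and 3.72), F11r (3.82 and 3.71) and Itgam (2.98 and 2.99) were close in the libraries, and those of Tmem119 were 3.71 and 3.12.

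Among the 61 genes lower in members, Lyve1, a hyaluronan receptor, was at 9.19 and 29.1 CPM in members and 1646 and 1617 CPM in macrophages. F13a1, a coagulation factor subunit, was at 11.0 and 60.6 CPM in members against 2332 and 2365, and the neutrophil chemokine gene Cxcl2 at 29.4 and 14.5 CPM against 1613 and 1965. Dab2, an endocytic adaptor, was at 38.6 and 81.2 CPM in members against 1985 and 2093 CPM. The transcription factor gene Maf was expressed in both groups, at 555 and 527 CPM in members and 1739 and 1719 CPM in macrophages, while Spi1, which encodes PU.1, was at 412 and 447 CPM in members and 439 and 393 CPM in macrophages. C1qa itself differed little, at 4640 and 4661 CPM in members and 4288 and 4070 CPM in macrophages.

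**Figure D2:**
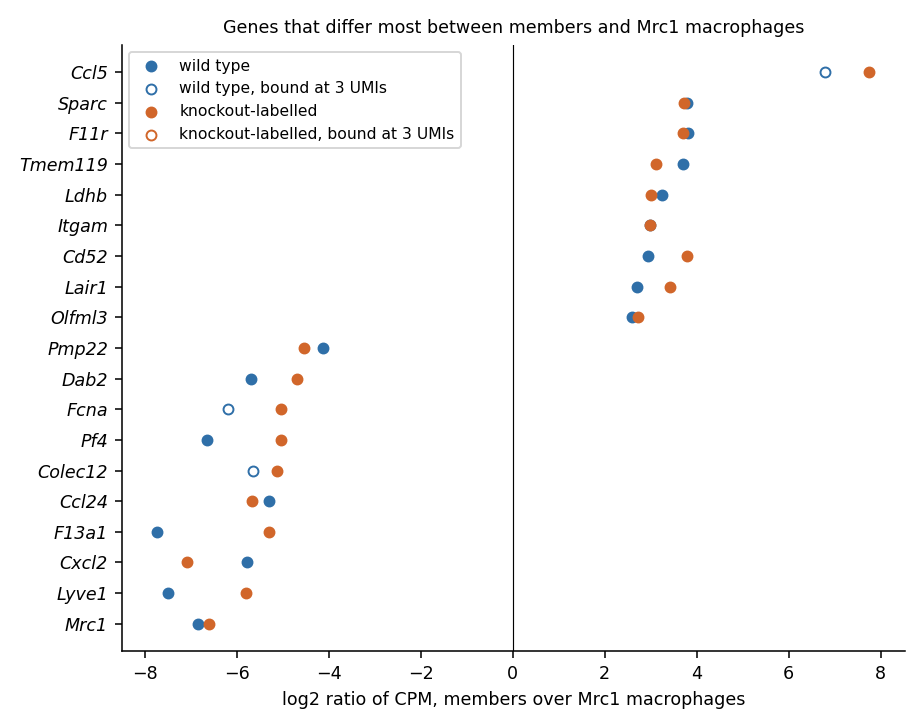
The x axis is the log2 ratio of summed CPM in members over Mrc1 macrophages, with 1 point per library for genes among the 10 with the largest ratio in each direction in both libraries; open points are bounds from a floor of 3 UMIs. Sparc, F11r and Tmem119 lie to the right of 0 in both libraries, and Mrc1, used by the rule, lies to the left with Lyve1 and F13a1.

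To see how members vary among themselves, each cell was thinned to 4000 UMIs, which left 34 of 47 wild-type and 53 of 83 knockout-labelled members. The variance divided by the mean had a median of 1.28 and 1.32 over 1264 genes, where Poisson counting alone gives 1. Ranked by the lower of the 2 libraries' values, the first 12 genes were Apoe, Malat1, Ccl5, Ccl4, Tmsb4x, Pf4, Cd52, Il1b, Ctsd, Actb, Fth1 and Ctsb. Pf4 had no UMI in thinned wild-type cells, so its place comes from the knockout-labelled library alone. Apoe, the main lipoprotein of brain macrophages, had a median of 44.5 UMIs per thinned cell and a maximum of 203 in the wild-type library, and a median of 29 and a maximum of 305 in the knockout-labelled library. Ctsd and Ctsb, lysosomal proteases, moved together over cells, with a Pearson r of 0.81 over 34 cells and 0.72 over 53 cells on log2 UMIs after adding 1. Malat1, a nuclear RNA, moved against Tmsb4x, an actin-sequestering peptide gene, with an r of -0.63 and -0.62. Cells of a library share their preparation, so these values are descriptions.

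Ccl5, a lymphocyte and monocyte chemokine, was uneven between cells. In 6 of 47 and 13 of 83 members it had any UMI, and 3 members in each library held at least 20. Those 3 cells carried 96.9% of the Ccl5 UMIs in the wild-type library and 94.5% in the knockout-labelled library, with a maximum of 159 and 410 UMIs in 1 cell. They had a median of 181 and 421 rule-marker UMIs, against 152 and 128 over all members, and 1 and 2 of them were also high for the interferon genes described below. Among Mrc1 macrophages Ccl5 had 2 UMIs in 29 cells and 7 UMIs in 78 cells. Most Ccl5 UMIs behind the levels of 472 and 945 CPM thus lay in 6 cells.

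Chemokine and early-response genes followed the amount of marker RNA. In members with at least 100 marker UMIs, Fos, Jun, Egr1 and Atf3 summed to 5779 and 5698 CPM, and in members with fewer they summed to 729 and 459 CPM. Ccl3 and Ccl4, inflammatory chemokines that microglia make quickly after activation, summed to 7322 and 6688 CPM in the first set and to 2013 and 864 CPM in the second. The same split was present in both libraries. The second set is also the shallower one, and the part of depth in the split was not tested.

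Dividing cells were counted as those with at least 5 UMIs of 25 genes of the G2 and M phases of the cell cycle. They were 12 of 47 (25.5%, 13.9 to 40.3%) and 23 of 83 (27.7%, 18.4 to 38.6%), so the intervals overlap. After thinning to 4000 UMIs, with at least 3 UMIs, they were 9 of 34 (26.5%) and 15 of 53 (28.3%). The limit cuts a range rather than a gap, with 7 and 17 members between 3 and 7 UMIs. Dividing members were deeper than the others, with a median of 14539.5 against 6210 UMIs in the wild-type library and 10579 against 5593 in the knockout-labelled library.

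Dividing and other members differed in genes outside that list. Hmgb2, a chromatin protein of cycling cells, was at 1101 CPM in dividing and 205 CPM in other wild-type members, and at 1088 and 249.95 CPM in knockout-labelled members. H2afz, a histone variant gene, was at 1690.5 against 397 CPM and at 1914 against 423 CPM. The resident-state genes Sall1, Tmem119 and P2ry12 went the other way in both libraries, and so did rule markers. C1qa was at 3678 against 5207 CPM and at 4322 against 4849 CPM, and Csf1r at 1234 against 1598 and 1136 against 1443. The dividing wild-type members include a cell with 267 radial glia UMIs among 23265 and another with 40 GABAergic UMIs among 42125. The part of such RNA in the lower microglia genes was not tested. Sall1 was at 84.3 CPM in dividing against 167 CPM in other wild-type members and at 78.5 against 143 CPM in the knockout-labelled library. P2ry12 was at 357 against 640 CPM and at 402 against 502 CPM. Fcrls, Siglech and Cx3cr1 were lower in dividing wild-type members only. In the knockout-labelled library they were at 1518 against 1094, 300 against 289 and 1699 against 1641 CPM. Tmem119 was at 154 against 266 CPM and at 177 against 256 CPM, and Ccl4 at 2275 against 5493 CPM and at 2562 against 4153 CPM. The lysosomal gene Ctsb did not keep its direction, at 2697 against 4026 CPM in the wild-type library and 4717 against 2755 CPM in the knockout-labelled library.

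Between the libraries, 1856 genes were measured over the summed members, each with 20 CPM or more in 1 of the libraries and 100 counts or more in their sum. Of these, 102 (5.5%) were called higher in the knockout-labelled library and 37 (1.99%) lower, 7.49% in all. A call here is a rule of size: at least 1.5-fold with a counting interval that leaves out no change. The median log2 ratio over measured genes was 0.03. Without each gene's top cell in each library, 96 of the 102 and 22 of the 37 calls still met the rule. The 100-count minimum was not applied again. Library sums were kept in this step, and 1 of 47 cells is a larger part than 1 of 83. The median log2 ratio rose to 0.096, so the step is lenient on higher calls and strict on lower calls. The largest differences thus need to be read with the number of cells that carry them. A gene low in wild-type members could reach 100 counts mostly through the knockout-labelled members, which held more UMIs. Counts of calls within lists, and list medians, can therefore lean to higher values.

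**Figure D3:**
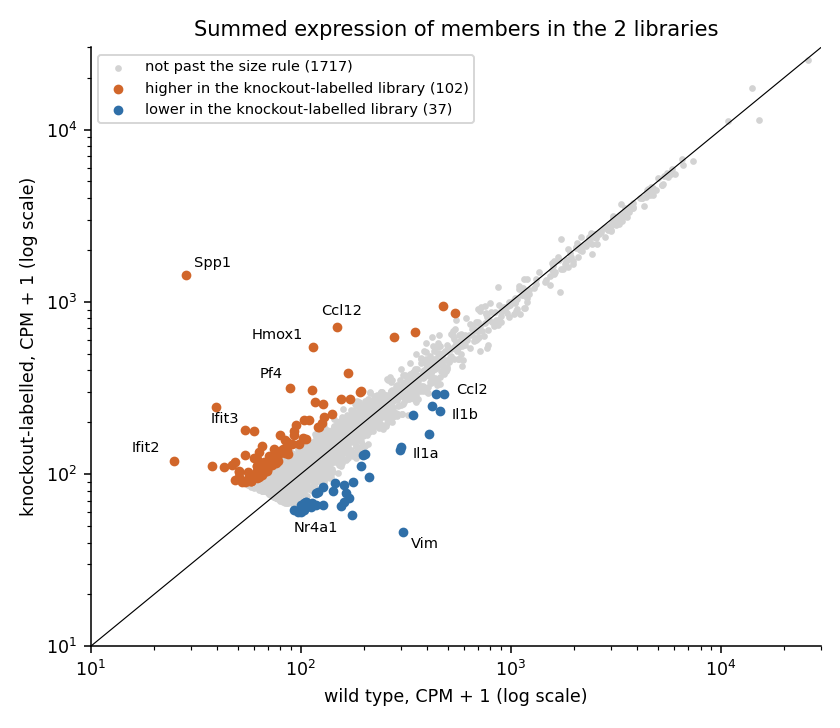
Each point is 1 of 1856 measured genes, with the summed CPM plus 1 of wild-type members on the x axis and of knockout-labelled members on the y axis, on log scales; the line marks equal values. Orange points are the 102 genes called higher and blue points the 37 called lower in the knockout-labelled library, with Spp1, Ccl12 and Hmox1 farthest above the line among labelled genes over 500 CPM.

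Interferon-response genes formed the group with the highest median ratio. Of 9 measured genes of a 22-gene list, 8 were called higher in the knockout-labelled library, against 5.5% of all measured genes, and the median log2 ratio of the 9 was 1.16 against 0.03 over all. Ifit2, which binds RNA and restrains translation, was at 23.9 CPM in wild-type members and 118 CPM in knockout-labelled members, a log2 ratio of 2.30 (1.46 to 3.26). Ifit3 was at 58.8 and 177 CPM, Isg15, a ubiquitin-like modifier, at 116 and 259 CPM, and Irf7, the transcription factor that amplifies the response, at 53.3 and 128 CPM. Ifitm3, which blocks viral entry, was at 276 and 624 CPM, and Bst2, which tethers virus particles, at 347 and 663 CPM. Ifi204, a DNA sensor, and Ifi27l2a were also called higher, with log2 ratios of 1.04 and 0.67.

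The difference was carried by a minority of cells. The list's median was 7 UMIs per cell in both libraries. Cells with at least 50 UMIs of the list, a limit set after the values were seen, were 2 of 47 (4.26%, 0.520 to 14.5%) in the wild-type library, with 163 and 125 UMIs, and 13 of 83 (15.7%, 8.61 to 25.3%) in the knockout-labelled library, with 53 to 315 UMIs. Those cells held 36.7% and 78.2% of the list's UMIs. In the remaining members the list summed to 977 and 929 CPM, against 1441 and 3143 CPM over all members. The same list chose the cells left out, so the remaining sums are a description and not a test. The 13 cells had a median depth of 17846 UMIs and a median of 108 UMIs of the 8 microglia genes. Among them 2 carried border genes, 2 were dividing and 3 had high doublet scores. After thinning to 4000 UMIs, cells with at least 20 list UMIs were 4 of 34 (11.8%, 3.30 to 27.5%) and 13 of 53 (24.5%, 13.8 to 38.3%), so the intervals overlap at equal depth.

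The same list was not higher in the other myeloid group. It summed to 2295 and 2021 CPM in Mrc1 macrophages, where 9 of 29 and 20 of 78 cells carried at least 50 UMIs. Macrophages were deeper, with medians of 23709 and 19167.5 UMIs against 8072 and 8263 in members. A raw limit of 50 UMIs thus does not compare the shares of the 2 groups, and the Mrc1 limit is a raw count too. Ifi27l2a, at 171 and 273 CPM in members, was at 940.3 and 480.2 CPM in macrophages. The difference between the 2 myeloid groups was not tested.

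Ccl12, a monocyte chemokine, was higher in the same cells, at 147 CPM in wild-type and 712 CPM in knockout-labelled members, with a log2 ratio of 2.28 (1.94 to 2.63). It had UMIs in 17 and 33 members, and 86.7% of the knockout-labelled UMIs lay in the 13 cells. Phf11b was at 36.8 and 110 CPM, with 78.0% in those cells. Cxcl9, an interferon-induced chemokine, was at 38.6 and 244 CPM, with 88.1% of the knockout-labelled UMIs in 1 cell, and lost its call without the top cells.

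The upstream sequence of the called interferon genes was searched for an interferon-type element, spelled as GAAA, any 2 bases and GAAA again, or on the other strand TTTC, any 2 bases and TTTC, in the 250 bases before each start listed by RefSeq on GRCm38.p6; overlapping matches were counted separately. Of the 8 genes, 6 had an entry, and 3 of these held a match (Isg15 with 3, Ifit3 and Bst2 with 2 each), against 3.46% of 27025 genes in the table and 3.98% of the 1481 measured genes with an entry. Of all genes called higher, 72 had an entry and 8 of these (11.1%) held a match. Ifit2, Irf7 and Ifitm3 had no match in this window. The Isg15 stretch lies at chr4:156200836-156200935 on the minus strand, the Ifit3 stretch at chr19:34583345-34583444 on the plus strand, and the Bst2 stretch at chr8:71537545-71537644 on the minus strand. They are shown because these genes had higher levels together, 5′ to 3′ along the gene, with the matches in capitals. A match is a description of letters and not evidence of binding.
Isg15: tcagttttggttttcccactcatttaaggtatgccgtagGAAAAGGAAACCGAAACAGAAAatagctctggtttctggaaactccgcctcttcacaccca
Ifit3: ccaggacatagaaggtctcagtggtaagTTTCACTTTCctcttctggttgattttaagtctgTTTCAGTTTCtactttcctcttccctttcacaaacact
Bst2: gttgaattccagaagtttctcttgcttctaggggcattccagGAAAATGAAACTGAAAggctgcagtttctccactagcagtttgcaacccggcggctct

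**Figure D4:**
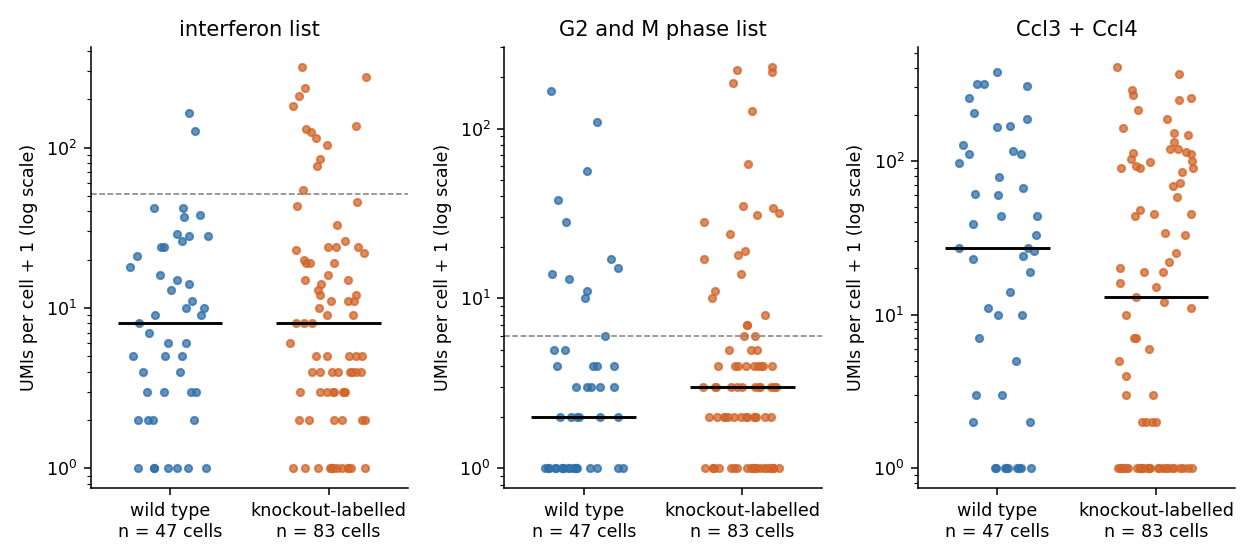
Each point is 1 member, with UMIs per cell plus 1 on a log axis for the interferon list, the G2 and M phase list, and Ccl3 plus Ccl4; black bars are medians and dashed lines mark the limits of 50 and 5 UMIs. The interferon medians are equal at 7 UMIs while 2 wild-type and 13 knockout-labelled cells lie over the limit.

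Of 7 measured G2 and M phase genes, 6 were called higher in the knockout-labelled library, against 5.5% of all measured genes, with a list median of 0.77. Mki67, the proliferation marker, was at 53.3 and 178 CPM, a log2 ratio of 1.74 (1.16 to 2.37), and was found in 6 and 15 members. Cdk1, the mitotic kinase, was at 42.3 and 109 CPM. Top2a, Ube2c, Birc5 and Cenpa were called higher as well, with log2 ratios of 0.70 to 0.92. The share of dividing members differed little, as given above, and 3 and 6 members carried at least 50 UMIs of the list. Of the 2 measured S phase genes, Mcm3 and Pcna, neither was called. The list was also higher in macrophages, where Mki67 was at 116 and 185 CPM.

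Chemokines and cytokines split in both directions: of 14 measured, 2 were called higher (Ccl12 and Pf4) and 3 lower, against 5.5% and 1.99% of all measured genes. Il1b, the inflammatory cytokine, was at 459.6 CPM (404 to 520.2) in wild-type members and 231 CPM in knockout-labelled members, a log2 ratio of -0.99 (-1.27 to -0.71). Il1a was at 299.6 and 143 CPM. Ccl2, a monocyte attractant, was at 482 and 292 CPM in members but at 1146 and 1938 CPM in macrophages. Il1b had UMIs in 13 of 47 and 18 of 83 members, so its sum rests on a minority of cells. The most abundant chemokine genes, Ccl3 at 2072 and 2194 CPM and Ccl4 at 4300 and 3588 CPM, were not called. Pf4, at 88.2 and 316 CPM, came from the border-gene cells, and without them 2 UMIs were left in each library.

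Of 21 measured genes of the NF-kB and immediate early list, Hspa1a, a heat shock chaperone, was called higher (540.5 and 865 CPM) and Ier3 lower (406 and 169.6 CPM). Over all measured genes the shares were 5.5% and 1.99%. In the list 8 genes had intervals entirely below 0 and 2 entirely above, against 178 and 199 of the 1856 measured genes. Fos was at 1191 and 1002 CPM, and Jun at 1879 and 2014 CPM, neither called. Nr4a1, a nuclear receptor gene induced by acute stimulation, was called lower at 175 and 57.0 CPM, and so were Dusp2, a phosphatase of MAP kinases, at 176 and 88.5 CPM, and Odc1, the polyamine synthesis enzyme, at 154 and 64.2 CPM. Ccrl2, a chemerin-binding receptor, was at 211 and 94.5 CPM. Apoc1, a lipoprotein gene, was at 296 and 137 CPM in members and at 187 and 48.7 CPM in macrophages, lower in both groups.

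The largest ratio of all came from 1 cell. Spp1, which encodes osteopontin, was at 27.6 CPM in wild-type members and 1438 CPM in knockout-labelled members, a log2 ratio of 5.70. A single knockout-labelled member held 1106 of its 1187 UMIs, 93.2%, together with 37 Gpnmb, 18 Lgals3 and 1817 Apoe UMIs, a gene set known from axon-tract-associated microglia of the perinatal brain. That cell had 435 rule-marker UMIs and 178 UMIs of the 8 microglia genes, and also 46 UMIs of the border genes and 1 of Mrc1. The cell is also 1 of the 13 with high interferon genes. Spp1 was found in 3 of 47 and 7 of 83 members, kept its call without the top cells (log2 ratio 3.15), and was at 159 and 437 CPM in macrophages. Of 16 measured genes of the axon-tract-associated list, 4 were called higher (Spp1, Fabp5, Lgals1 and Hmox1), against 5.5% of all measured genes, and the list median was 0.05. Hmox1, which degrades haem, was at 114 and 546 CPM with 75.6% of its knockout-labelled UMIs in 1 other cell, and its log2 ratio without the top cells was 0.45. Fabp5, a fatty acid carrier, was at 167 and 387 CPM, spread over 22 and 52 members, and Lgals1 at 64.3 and 145 CPM over 11 and 30 members.

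Some calls in the other direction rested on 1 wild-type cell for each gene. Vim, an intermediate filament gene of radial glia, was at 305 and 44.8 CPM, with 93.4% of the wild-type UMIs in 1 cell, and Meis2, a transcription factor gene of inhibitory neurons and progenitors, was at 164 and 76.3 CPM with 70.8% in 1 cell. Without the cells that held at least 20 UMIs of radial glia or GABAergic genes, their log2 ratios were 2.13 and 2.05.

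The measured genes that define microglia were not called in either direction. Of 16 measured homeostatic genes, none was called, against 7.49% of all measured genes. At that share a list of this length holds few calls or none, so the lack of calls says little. The median log2 ratio was -0.18 (lowest -0.47, highest 0.34), against 0.03 over all genes. Within that list 7 genes had intervals entirely below 0 and 0 entirely above, against 178 and 199 of the 1856 measured genes. Among the 7 were Siglech at 403 and 293 CPM and Crybb1 at 713 and 516 CPM. The microglia markers outside the rule share genes with that list. Of the 23 measured, none was called, 12 had intervals entirely below 0 and 0 entirely above. Their median log2 ratio was -0.20. Of 14 measured lineage transcription factors none was called, and the median was 0.01, with Irf8 at 319.9 and 313 CPM and Runx1 at 215 and 242 CPM. None of 6 complement genes, 11 phagocytic receptors, 23 lysosomal genes or 13 receptors for growth factors and purines was called. The share of 7.49% over all measured genes applies to these short lists too. Trem2 was at 1169 and 915 CPM, and its partner Tyrobp at 2982 and 2589 CPM. Lysosomal genes had a median of -0.03, with Ctsd at 4454 and 4479 CPM and Lgmn, a processing protease, at 2526 and 2465 CPM. For these lists a rule of 1.5-fold leaves smaller differences undescribed.

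**Figure D5:**
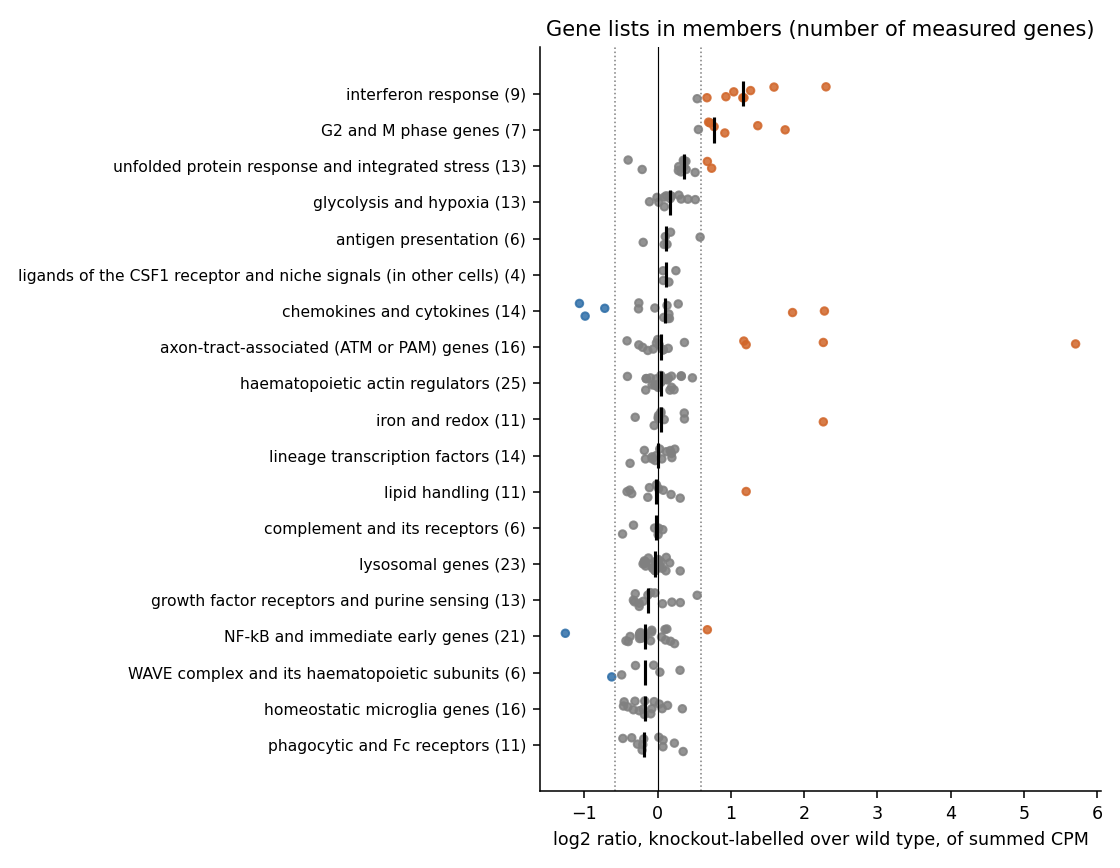
Each point is 1 measured gene of a list, with its log2 ratio of knockout-labelled over wild-type summed CPM on the x axis; black bars are list medians, dotted lines mark 1.5-fold, and orange and blue points are genes called higher and lower; numbers in brackets are measured genes. The interferon list has the rightmost median at 1.16, followed by the G2 and M phase list at 0.77, and the homeostatic and lysosomal lists hold grey points only.

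Of 13 measured unfolded protein response genes, Manf, a secreted stress factor, was called higher at 129 and 214 CPM, and so was Xbp1, the transcription factor of that response, at 64.3 and 103 CPM. These 2 calls stand against 5.5% of all measured genes. The list median was 0.36, against 0.03 over all, and the chaperone gene Hspa5 was at 452 and 645 CPM without a call. None of 13 glycolysis and hypoxia genes was called, with Gapdh at 1577 and 1679 CPM and Hk2, a hexokinase, at 217 and 247 CPM. Antigen presentation genes were not called either (0 of 6), with B2m at 2985 and 2604 CPM. Over all measured genes 7.49% were called.

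The targeted gene was barely detected in wild-type members. Cyfip2 (mm10, chromosome 11, 46193850 to 46312859, minus strand) had 2 UMIs in the wild-type members, 3.68 CPM (0.445 to 13.3), and 29 UMIs in 21 knockout-labelled members, 35.1 CPM (23.5 to 50.5). The log2 ratio was 3.26 (1.27 to 6.37), with more Cyfip2 in the knockout-labelled library. Mrc1 macrophages had 2.86 and 58.7 CPM. Among members thinned to 4000 UMIs, Cyfip2 was found in 0 of 34 cells (up to 10.3%) and 7 of 53 cells (13.2%, 5.48 to 25.3%). Cyfip2 stayed under the count minimum of the gene comparison and is outside its calls.

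Neuronal transcripts differed in the same direction. The 10-gene pan-neuronal list summed to 1592 CPM in wild-type and 2391 CPM in knockout-labelled members, and 4 of its 7 measured genes were called higher, among them Meg3 and Stmn2, against 5.5% of all measured genes. Stmn1 made up 699 and 906 CPM of these sums. It was also higher in dividing members, at 1497 against 228 CPM and at 1392 against 639 CPM. The 10-gene sums are 6.35% and 9.76% of the list's level in barcodes under 100 UMIs, which hold mostly free RNA. At that share Cyfip2 would give 2.63 and 5.91 UMIs, against 2 and 29 counted. Without Stmn1 and Tuba1a the other 8 genes summed to 474 and 863 CPM, 4.86% and 8.63% of their level in those barcodes. At these lower shares Cyfip2 would be at 3.71 and 6.33 CPM. In members without border genes Cyfip2 was at 3.92 and 37.6 CPM, and in members with at least 100 marker UMIs at 4.48 and 35.9 CPM. The part of neuronal RNA in the Cyfip2 difference was not tested.

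Of 11 genes of the WAVE complex list, 6 were measured in members. Wasf3 had no UMI in members of either library, Wasf1 was at 3.68 and 6.06 CPM, and Nckap1 was at 5.51 and 4.85 CPM. Cyfip1, the relative of the targeted gene, was at 324 CPM in wild-type and 311 CPM in knockout-labelled members, a log2 ratio of -0.06 (-0.34 to 0.23). The haematopoietic subunit gene Nckap1l was at 116 and 82.4 CPM, and Abi3, 1 of the ABI genes found in members, at 131 and 133 CPM. Abi1 was called lower, at 105 and 67.9 CPM with a log2 ratio of -0.63 (-1.19 to -0.07). It was 1 of the 6 measured genes, against 1.99% of all measured genes called lower. Wasf2, which encodes WAVE2, was at 162 and 199.9 CPM and Brk1 at 415 and 337 CPM, neither called. Of 25 measured actin regulators of blood cells, none was called, against 7.49% of all measured genes, and the median log2 ratio was 0.04. Tmsb4x, the most abundant of them, was at 25952 and 25423 CPM, and Coro1a, a coronin of leukocytes, at 651 and 642 CPM.

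The signals that microglia receive were looked up in the other cells. Il34, the neuronal ligand of the CSF1 receptor, was at 1.08 and 0.87 CPM in all other called cells, and Csf1 at 4.28 and 4.48 CPM, while members themselves had Csf1 at 73.5 and 77.5 CPM. Tgfb1 was at 206 and 229 CPM in members and 2.04 and 2.89 CPM in other cells, and Nrros, which presents latent transforming growth factor beta on microglia, at 121 and 144 CPM against 1.40 and 2.27. Members had Tgfbr1 at 229.8 and 263 CPM. None of the 4 measured genes of this list was called between the libraries, against 7.49% of all measured genes.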

How the data were processed

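Both libraries (embryonic day 18.5 forebrain, wild type and Cyfip2 knockout-labelled) were deposited as UMI counts per gene and barcode for all barcodes, which per the file headers come from Cell Ranger 4; the genome was mm10 per the submitters' processing notes. Chemistry version and annotation release: not given in the sources used here. Members were chosen by the stated limits, and counts of genes that share a symbol were added. Counts were summed over members in each library and scaled to CPM. Ratios are knockout-labelled over wild type with exact conditional 95% intervals, and shares have Clopper-Pearson intervals. UMIs count molecules, so CPM needs no length correction. A gene was called at 1.5-fold with an interval that leaves out no change, as a rule of size with no p-value, since single cells are not replicates. Doublets were scored with Scrublet (scanpy 1.11.5): the highest scores at an expected rate marked 660 and 1322 called cells, 10 and 14 of them members, and all were kept. Named genes are the 15 largest called ratios in each direction, the 20 leading genes, 10 per direction against macrophages, the 12 most variable, and members of 20 gene lists. The members and lists were chosen with earlier results of these data known. Gene positions are from GENCODE M21 and promoters from RefSeq. The limits for border-gene, interferon-high and Ccl5-rich cells, and the alternatives named as such, were chosen after seeing the data. Of the listed genes, 4 were not found in the table. The calculations, in Python 3.11.15 with numpy 2.4.6, scipy 1.17.1 and pandas 2.3.3, were checked on simulated counts. Results for some genes are not reported here.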

Additional observations from a re-analysis of the deposited data

Results flagged for a closer look

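Of the genes compared between libraries, 6 that are reported here met the size rule in members and met it in the opposite direction in Mrc1 macrophages; the difference between the myeloid groups was not tested, with 1 library per genotype. Hmox1 had a log2 ratio of 2.26 in members and -1.14 in macrophages, with most of the members' signal in 1 cell. Tlr2, a receptor for bacterial lipoproteins, stood at 0.86 and -0.84, and Ifi27l2a at 0.67 and -0.97. In the other direction Ccl2 stood at -0.72 in members and 0.76 in macrophages, Sox4 at -0.65 and 0.96, and Meis2 at -1.10 and 4.27. Sox4 and Meis2 are abundant in neurons and progenitors.

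Barcodes outside the limits on depth and mitochondrial share also met the gene limits. There was 1 in the wild-type library with over 10% mitochondrial UMIs. With at least 500 but under 1000 UMIs, or under 500 genes, there were 2 in the wild-type library and 5 in the knockout-labelled library. They were used in no comparison.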

How the results depend on the processing

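No paired analysis was possible because each group has 1 library and the labels carry no replicate numbers; for the same reason no replicate could be left out. Of 405 alternative values of the main results, 388 stayed within the main value's interval, or within 1.5-fold for counts of genes. The ratio of members' shares did so in all. For a list median the interval is the median of its genes' bounds. A list median whose interval includes 0 could change sign and still count as kept. A count of genes does not show which genes were called. A minimum of 50 CPM left the same 1856 genes and calls, so that setting could move nothing. The cause of the 17 moves outside these limits was not tested. With Neurod2 and Neurod6 at 0, 67 genes were called higher and 24 lower. The list medians were then 1.98 for interferon and 0.55 for antigen presentation. That setting kept 26 of the 102 main higher calls and 8 of the 37 lower calls. Mrc1 at 0 kept 37 and 9, leaving out the highest doublet scores 44 and 19, and leaving out dividing members 32 and 13. Fewer genes were measured there, at 1116, 1355, 1437 and 1174 in this order, against 1856. At least 20 marker UMIs kept 84 and 32, and only cells with at least 4000 UMIs 79 and 29. With Mrc1 at 0 the homeostatic median was 0.072. Without the highest doublet scores the G2 and M median was 1.72, and with the mean of CPM per cell the interferon median was 0.52. Without dividing members 67 genes were called higher and the axon-tract-associated median was -0.36. With at least 20 counts and no CPM minimum, 337 and 158 of 6521 genes were called. At a limit of 3 UMIs the dividing share in the knockout-labelled library was 42.2%. Alternatives chosen after seeing the data moved others. Without each gene's top cell 147 genes were called higher and 22 lower. Library sums and the set of measured genes were kept there, and the median log2 ratio over measured genes rose to 0.096. Without interferon-high members the medians were 0.069 for interferon, -0.37 for chemokines, -0.35 for antigen presentation and 0.77 for S phase genes. By construction those cells carry the interferon genes: Ifit2 then stood at -1.48, Irf7 at -0.70, Ifitm3 at -0.28 and Cxcl9 at -2.85.

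Other single genes reversed. Pf4 was at -0.61 with Mrc1 at 0 and -0.49 without border-gene cells, where Cxcl9 was at -0.30. Cdk1 was at -1.64 without dividing members. Vim was at 1.54 with Neurod2 and Neurod6 at 0, 2.11 without high doublet scores, 1.95 without dividing members, 2.13 without cells rich in GABAergic or radial glia genes, and 0.46 without top cells. Meis2 was at 0.57 with Mrc1 at 0, and at 1.26, 2.85, 2.05 and 0.056 under the last 4 of those settings and 0.98 with the mean of CPM per cell. Scaling by median of ratios gave 88 genes higher and 43 lower (67.2% higher, against 73.4%). Higher calls were 58.3% of all calls without high doublet scores (77 and 55), 56.8% without dividing members (67 and 51) and 65.7% without border-gene cells (71 and 37). Depth limits genes under 100 counts, Cyfip2 among them.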

Other observations

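Lipid and iron genes outside the groups above were also compared. Apoe was at 15107 CPM in wild-type members and 11310 CPM in knockout-labelled members, a log2 ratio of -0.42 that stayed under the size rule. Abca1, a cholesterol exporter, was at 257 and 197.5 CPM, and the ferritin genes Fth1 and Ftl1 were at 5554 and 5608 CPM and at 6530 and 6723 CPM. Of 11 measured lipid genes and 11 measured iron and redox genes, 1 in each list was called higher (Fabp5 and Hmox1), against 5.5% of all measured genes.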
